A study of Mus musculus with 5 samples.

Results

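Klf12 and 9 other Kruppel-like factor genes were followed in MLE-15 mouse lung epithelial cells that carried an shRNA against Grhl2. Klf12 was selected on its log2 difference between the groups, among the largest falls of this same comparison, and Klf3, Klf4, Klf5, Klf6, Klf7, Klf9, Klf10, Klf11 and Klf13 were added by family name. The set holds 10 of the 19937 genes that had a probe set with 1 gene symbol. Each of the 10 had 1 probe set, and all 10 passed the filter on low signal, a mean log2 value of at least 4.22. The MLE-15 line derives from tumours in mice with an SV40 large tumour antigen transgene under the human surfactant protein C promoter. All cells received a lentivirus with a GFP reporter for 16 h, at a multiplicity of infection of 50 and with 5 µg/ml polybrene, and puromycin selection at 5 µg/ml followed for 6 days. The lentivirus carried the Grhl2 shRNA in 3 samples and a non-targeting (non-silencing) shRNA in 2 control samples. The labels call each sample an independent transduction, all were of 1 cell line, and a single hairpin against Grhl2 was used.

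Kruppel-like factors are transcription factors that bind CACCC and GC-rich boxes through C2H2 zinc fingers near their carboxyl end. The fingers are much alike across the family, while the amino-terminal parts differ and recruit different partners. Klf3, Klf8 and Klf12 bind the corepressor CtBP. Klf4, Klf5, Klf6 and Klf7 have activation domains, and Klf9, Klf10, Klf11 and Klf13 bind the corepressor Sin3. In the lung, Klf5 is known for its part in the maturation of the alveolar epithelium before birth. Grhl2 encodes a Grainyhead-like transcription factor that maintains epithelial genes.

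Grhl2 itself measured 7.43, 7.43 and 7.60 on the log2 scale with its shRNA against 7.77 and 7.68 in the control, a difference of −0.24 (SE 0.065, limma adjusted p = 0.082) that missed the threshold of 0.05. Every comparison with the control below is therefore of libraries labelled as knockdown, in which the array signal of Grhl2 was 85.0% of the control signal. Without knockdown replicate 3 the Grhl2 difference was −0.29 (adjusted p = 0.047), and with each of the other 4 arrays left out the adjusted p was between 0.170 and 0.320. Array medians lay between 5.29 and 5.32. Of 10 lung epithelial markers, 9 were above the filter level, and Lamp3 was below it. Of 13 measured markers of immune, endothelial, fibroblast and smooth muscle cells, 11 were above it, Ptprc and Kdr below. Dcn, a fibroblast proteoglycan gene, rose by 0.70 (limma adjusted p = 0.036), and Tyrobp, a myeloid adaptor gene, by 0.28 (adjusted p = 0.020). These were the 2 that passed among the 11 tested, where 6.38% of all genes passed. The other 4 fibroblast and smooth muscle markers, Col1a1, Col1a2, Pdgfra and Acta2, were at −0.012, −0.00023, −0.07 and −0.15, and the other 3 immune markers, Ptprc, Cd68 and Cd3e, at 0.0089, −0.06 and −0.0076. The summed linear signal of the fibroblast and smooth muscle markers ranged from 400.1 to 489 on the knockdown arrays and from 351 to 363 on the control arrays, with Dcn the one marker of these 5 that was higher. That of the immune markers ranged from 145 to 152 and from 143 to 150.4, and that of the endothelial markers from 164 to 170.1 and from 176 to 182. Their part in the Klf values was not tested. In cultures read in bulk, fewer cells of a type and less RNA per cell cannot be told apart.

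Klf12, a repressor that was first described at the promoter of the AP-2 alpha gene, stood apart from the rest of the set. Its log2 value (probe set 10422013) was 4.68, 4.47 and 4.87 in the knockdown samples and 5.65 and 5.90 in the controls. The groups did not overlap, with every knockdown sample the lower, and the gap between the groups was 0.78, with a range of 0.40 within the knockdown arrays and 0.25 between the control arrays. The means were 4.67 ± 0.20 (SD, n = 3) and 5.77 ± 0.18 (SD, n = 2), a log2 difference of −1.10 (SE 0.12), which left 46.7% of the control signal. These values chose the gene, so they are a description, and neither the gap nor the difference is a test. In the order of all falls Klf12 was the fifth, between Xist, the X-inactivation RNA, at −1.19 and R3hdml at −0.999. The knockdown values were close to the filter level of 4.22, so the difference rests on a dim probe set. Klf12 was also the least even member between replicates: its pooled within-group SD of 0.19 exceeded that of 98.9% of the 14979 genes tested, against a median of 0.055.

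**Figure D1:**
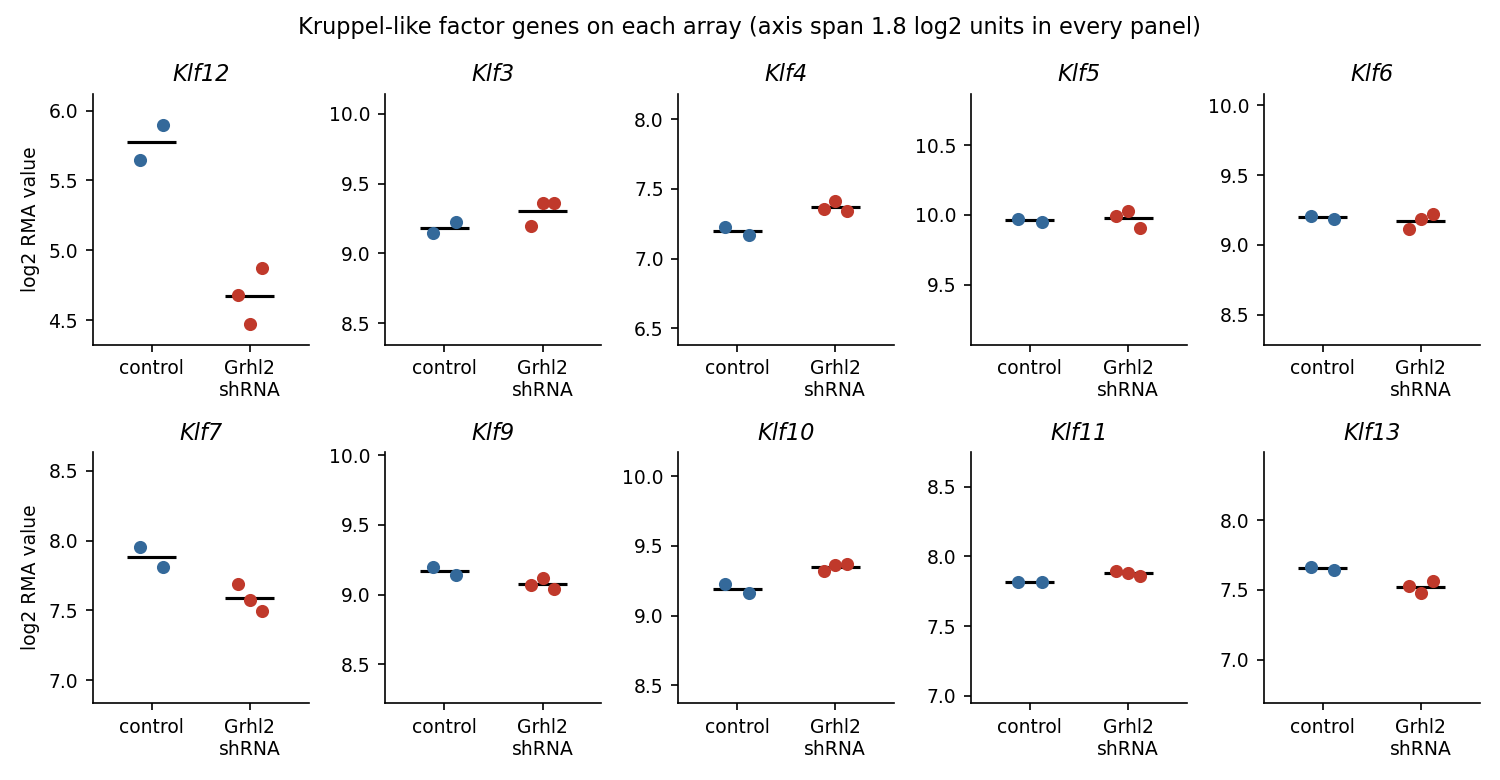
Log2 RMA value of each of the 10 Klf genes on the 2 control arrays (blue) and the 3 Grhl2 shRNA arrays (red), with a bar at each group mean; every panel spans 1.8 log2 units, so distances compare between panels but positions do not. Klf12 values lie between 4.47 and 4.87 with the Grhl2 shRNA and at 5.65 and 5.90 in the control, while the groups of the other members lie within 0.30 of each other on average.

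Of the other CtBP-binding members, Klf3 was tested and Klf8 was not. Klf3, a repressor widely expressed in epithelia and blood cells, had values of 9.20, 9.36 and 9.36 with the Grhl2 shRNA and 9.15 and 9.22 in the control. The groups overlapped, since knockdown replicate 1 lay between the controls, and the difference was 0.12 (SE 0.063, limma adjusted p = 0.31). Klf8 was below the filter, with a mean log2 value of 3.58, and was not tested. Its values were 3.47, 3.57 and 3.53 with the Grhl2 shRNA and 3.65 and 3.69 in the control. They were lower on every knockdown array without overlap, but below the signal level that was tested. Of all genes tested, 20.5% were lower without overlap.

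Upstream sequence is shown for Klf12 and for the members with the next largest differences in each direction, Klf7 and Klf4, because these 3 genes span the range of the set. The windows are the 250 bases before an annotated transcript start in RefSeq, build GRCm38.p6, read 5′ to 3′ on the strand of the gene: chr14:100149797-100150046 (−) for Klf12, chr1:64121390-64121639 (−) for Klf7 and chr4:55532476-55532725 (−) for Klf4. Capitals mark CACCC and GGGCGG on either strand.
Klf12: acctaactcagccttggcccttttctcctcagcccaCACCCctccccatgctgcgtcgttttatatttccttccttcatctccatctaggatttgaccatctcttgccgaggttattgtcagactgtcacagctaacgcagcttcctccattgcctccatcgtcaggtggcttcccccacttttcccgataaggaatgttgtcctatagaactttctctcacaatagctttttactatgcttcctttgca
Klf7: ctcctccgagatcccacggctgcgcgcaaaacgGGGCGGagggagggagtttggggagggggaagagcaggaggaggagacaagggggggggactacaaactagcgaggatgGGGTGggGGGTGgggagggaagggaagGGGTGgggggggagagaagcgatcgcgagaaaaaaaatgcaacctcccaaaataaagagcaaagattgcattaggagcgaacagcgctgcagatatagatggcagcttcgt
Klf4: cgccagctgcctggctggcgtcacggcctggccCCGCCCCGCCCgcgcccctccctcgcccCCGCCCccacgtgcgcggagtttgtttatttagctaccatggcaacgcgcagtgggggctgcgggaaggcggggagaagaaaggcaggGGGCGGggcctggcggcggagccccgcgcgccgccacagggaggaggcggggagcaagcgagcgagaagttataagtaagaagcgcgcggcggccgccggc

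The Klf12 window had a GC content of 48.0% and 6 CpG dinucleotides, against medians of 52.4% and 6.0 over all 32851 windows of this length. The windows of Klf7 and Klf4 had GC contents of 59.2% and 74.0%, with 13 and 32 CpG dinucleotides. Windows were found for 8 of the 10 members, all but Klf5 and Klf10, and Klf12 had the lowest GC content of the 8. Its annotated start lies 136 kb inside the RefSeq span of the gene, so other starts exist, and the start in use in these cells was not tested. The Klf7 start lies 0.956 kb inside its span, and the remaining windows lie at the outermost start. The Klf12 window is thus not of the same kind as those it is ranked with. CACCC, the Klf box, was present on either strand in 5 of the 8 windows, among them those of Klf12 and Klf7, and in 52.0% of all windows. GGGCGG, the GC box, was present in 6 of the 8 windows, not in those of Klf12 and Klf9, and in 32.7% of all windows. The 2 boxes overlap in places, as in the Klf3 window. The Grainyhead core AACNNGTT, which includes the full site AACCGGTT, was in 0 of the 8 windows and in 3.64% of all windows. These letters were thus not in the windows searched, which says nothing about sites elsewhere.

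Among the members with activation domains, Klf7 and Klf4 differed most, in opposite directions, but neither passed the threshold. Klf7, known from neurons and fat cells, had values of 7.69, 7.57 and 7.50 in the knockdown samples against 7.96 and 7.81 in the controls, with no overlap. The difference was −0.30 (SE 0.070, limma adjusted p = 0.055). Klf4, a factor of epithelial differentiation and of pluripotency, had values of 7.36, 7.41 and 7.34 with the Grhl2 shRNA and 7.23 and 7.17 in the control. The knockdown arrays were all higher, by 0.17 on average (SE 0.045, adjusted p = 0.074). Both calls turned on the settings. Under a trended, robust variance prior the limma adjusted p was 0.0091 for Klf7 and 0.046 for Klf4, and after a filter at the 50th percentile it was 0.019 and 0.027. With each array left out it ranged from 0.056 to 0.243 for Klf7 and from 0.113 to 0.300 for Klf4.

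Klf5 and Klf6 had the smallest differences of the set. Klf5 had values of 9.99, 10.03 and 9.91 with the Grhl2 shRNA and 9.97 and 9.95 in the control, so that the controls lay inside the range of the knockdown arrays. Its difference was 0.016, with a 95% confidence interval of −0.10 to 0.13 (adjusted p = 0.90). Klf6, an early-response factor of many tissues, had values of 9.11, 9.19 and 9.22 against 9.21 and 9.19, a difference of −0.025 with an interval of −0.14 to 0.09 (adjusted p = 0.81). Klf12 was chosen for the size of its fall, so setting its −1.10 against the intervals of other members would be no test. Klf5 and Klf6 each changed sign when 1 knockdown array was left out.

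None of the 4 Sin3-binding members passed the threshold. Klf10 and Klf11, which were described as TGF-beta-inducible early genes, had values above the control on every knockdown array. Klf10 had values of 9.32, 9.37 and 9.37 against 9.23 and 9.16, a difference of 0.16 (SE 0.044, adjusted p = 0.087). Klf11 had values of 7.89, 7.88 and 7.86 against 7.82 and 7.82, a difference of 0.06 (SE 0.039, adjusted p = 0.41). Klf11 was the most even member, with a pooled SD of 0.013. Klf9, a hormone-responsive repressor, and its close relative Klf13 had values below the control on every knockdown array. Klf9 had values of 9.07, 9.12 and 9.04 against 9.20 and 9.14, a difference of −0.09 (SE 0.045, adjusted p = 0.27). The gap between its groups was 0.024, smaller than the 0.055 between its control arrays. Klf13 had values of 7.53, 7.47 and 7.56 against 7.66 and 7.64, a difference of −0.13 (SE 0.045, adjusted p = 0.14). For Klf10 the limma adjusted p was 0.019 under a trended, robust prior and 0.033 after a filter at the 50th percentile. Klf9, Klf11 and Klf13 did not pass under any of the 14 alternatives run.

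**Figure D2:**
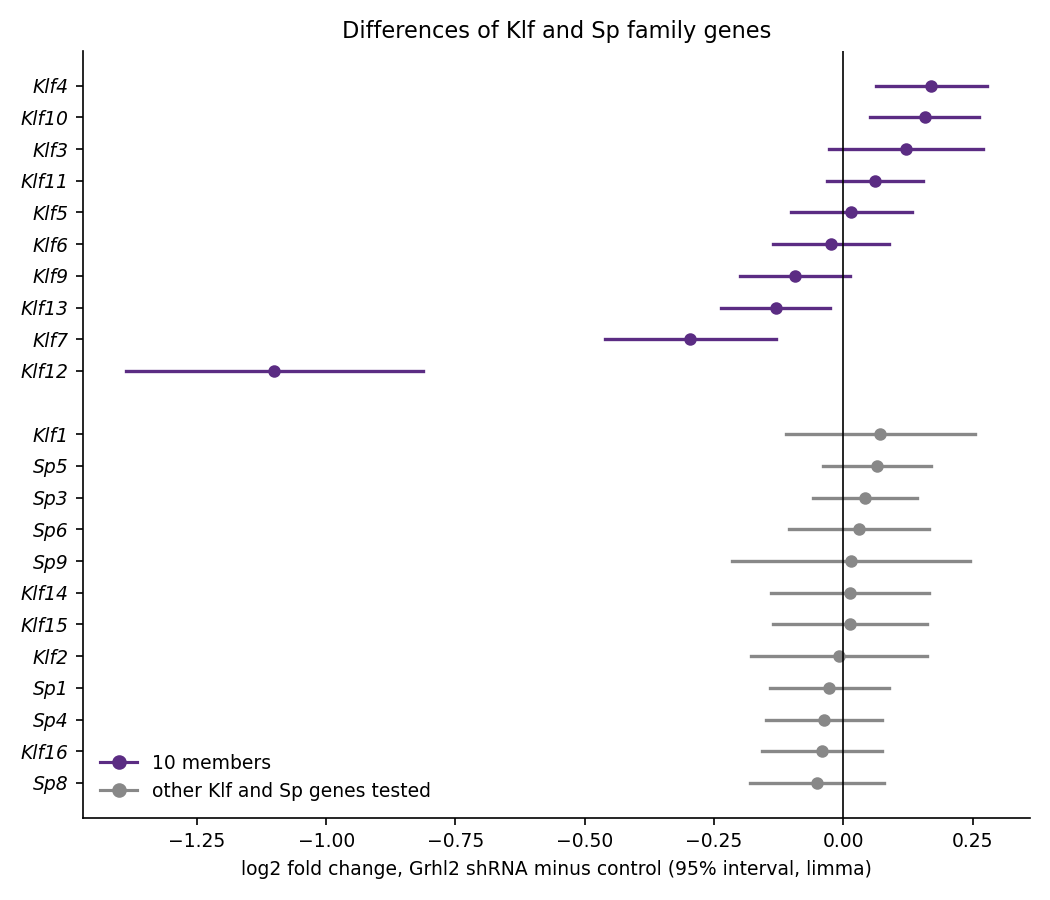
Log2 fold change (Grhl2 shRNA minus control) with its 95% confidence interval from limma for the 10 Klf genes (purple) and for the 12 other Klf and Sp genes tested (grey), each group ordered by value. Klf12 lies at −1.10, the next lowest is Klf7 at −0.30, and the grey genes lie between −0.05 and 0.07.

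Counted together, 1 of the 10 members was past the limma threshold, namely Klf12, on whose fall the set was built, so that its call is no evidence, while 6.38% of all genes tested passed, 3.52% as lower and 2.86% as higher. Without control replicate 2 the difference of Klf12 was −0.97 and the count was 0. None of the other 9 passed in limma. At an unadjusted p under 0.05 there were 4 of these 9 (Klf4, Klf7, Klf10 and Klf13), against 23.1% of all genes tested. In 6 of these 9 genes the groups did not overlap, 3 lower and 3 higher, against 41.5% of all genes in either direction (20.5% lower, 21% higher). The median difference of the 9 was 0.016, and over all genes tested it was 0.0020. The members were chosen with these results known, so nothing is read from the shares.

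**Figure D3:**
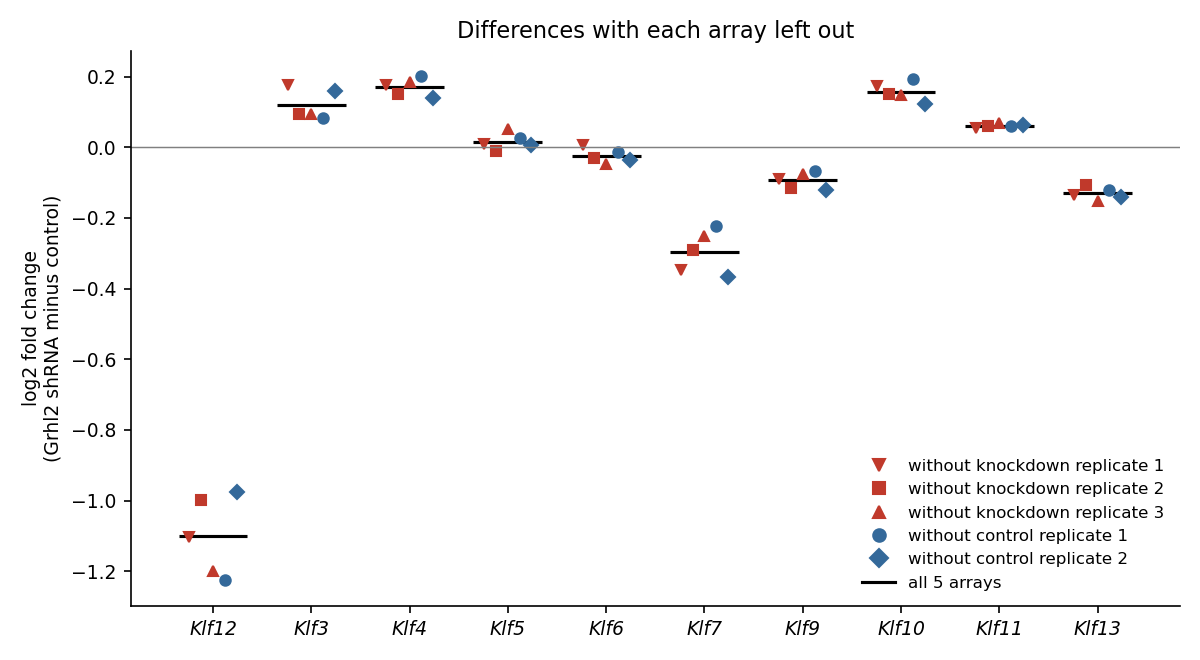
Log2 fold change of each Klf gene with all 5 arrays (black bar) and with 1 array left out (red symbols, a knockdown array; blue symbols, a control array). Klf12 ranges from −1.23 to −0.97 and Klf7 from −0.37 to −0.22, while Klf5 and Klf6 cross 0.

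The rest of the Klf and Sp family, which shares the zinc fingers, held no called gene. Of 16 listed genes 12 were tested, and 0 rose and 0 fell, where 6.38% of all genes passed. In limma 0 also had an unadjusted p under 0.05, against 23.1% of all genes. Their median was 0.013, with values from −0.05 to 0.07. Klf1, the erythroid factor, had the largest difference, 0.07 (SE 0.077, adjusted p = 0.64), at low values of 4.86, 5.09 and 5.09 against 4.91 and 4.98. Sp5, a target of Wnt signalling, came next at 0.07 (SE 0.044, adjusted p = 0.43). Klf8, Klf17 and Sp7 were below the filter, and no probe set carried the symbol Sp2 alone.

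The cofactors of Klf proteins had differences from −0.08 to 0.13. Of 18 listed genes 16 were tested, and 0 rose and 0 fell, against 6.38% of all genes called. In limma 1 had an unadjusted p under 0.05, against 23.1% of all genes. That gene was Wwp1, a ubiquitin ligase of Klf2 and Klf5, at 0.13 (SE 0.041, adjusted p = 0.11), with values of 9.66, 9.67 and 9.72 against 9.55 and 9.54. The histone deacetylase gene Hdac3 was at −0.08 (adjusted p = 0.29). Ctbp1 and Ctbp2, which encode the corepressors bound by Klf12, were at 0.03 and 0.07 (adjusted p = 0.72 and 0.53). Sin3a and Sin3b were at −0.02 and 0.02 (adjusted p = 0.85 and 0.82). These 4 genes were singled out after their values were seen. The median of the 16 was 0.012.

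Genes described in other cells as Klf targets had differences from −0.51 to 0.28, 10 above 0 and 10 below. Of 26 listed genes 20 were tested, of which 1 rose, 1 fell and 18 did not pass; 10.0% passed, against 6.38% of all genes. Maoa, the monoamine oxidase gene described as a target of Klf11, fell from 8.94 and 8.99 on the control arrays to 8.50, 8.44 and 8.41 on the knockdown arrays. The change was −0.51 (SE 0.047, limma adjusted p = 0.0048). Ccl5, a chemokine gene described as a target of Klf13, rose from 5.68 and 5.70 to 5.86, 5.95 and 5.95, a change of 0.23 (SE 0.046, adjusted p = 0.035). Ccl5 is also an interferon- and NF-kappaB-induced gene. Tfap2a, the AP-2 alpha gene at which Klf12 was described as a repressor, had values of 6.27, 6.31 and 6.41 in the knockdown samples and 6.38 and 6.47 in the controls. These groups overlapped (−0.09, SE 0.057, adjusted p = 0.39), and the gene was singled out after its value was seen. The median of the list was −0.0063. An unadjusted limma p under 0.05 was found for 9 of the 20, against 23.1% of all genes.

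Klf4, Klf6 and Klf10 belong to the genes that growth factors and stress induce early. Other such genes had differences from −0.55 to 0.35, 9 above 0 and 11 below. All 20 listed immediate-early genes were tested, of which 1 rose, 2 fell and 17 did not pass; 15.0% passed, against 6.38% of all genes. Fosl1, an AP-1 subunit gene, rose from 6.82 and 6.76 to 7.13, 7.13 and 7.16, by 0.35 (SE 0.043, adjusted p = 0.0091). Ccn2, a matricellular protein gene and target of Yap, fell from 10.26 and 10.48 to 9.89, 9.86 and 9.70, by 0.55 (SE 0.082, adjusted p = 0.016). Btg2, an antiproliferative gene induced by p53, fell from 9.74 and 9.87 to 9.26, 9.50 and 9.43, by 0.40 (SE 0.079, adjusted p = 0.033). The median was −0.02. An unadjusted limma p under 0.05 was found for 9 of the 20, against 23.1% of all genes.

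Klf9 is induced by glucocorticoids, and Klf9 and Klf10 follow the circadian clock. Of 19 listed glucocorticoid and clock genes 18 were tested, of which 2 rose, 0 fell and 16 did not pass; 11.1% passed, against 6.38% of all genes. The median was 0.09. An unadjusted limma p under 0.05 was found for 8 of the 18, against 23.1% of all genes. The lists were chosen with earlier results of these data known, so nothing is read from their shares. Tsc22d3, which encodes the glucocorticoid-induced leucine zipper, rose from 6.67 and 6.83 to 7.13, 7.13 and 7.18, by 0.39 (SE 0.057, adjusted p = 0.015). Nr1d2, a nuclear receptor gene of the clock, rose from 8.93 and 8.82 to 9.20, 9.22 and 9.09, by 0.29 (SE 0.059, adjusted p = 0.037). In this list 12 genes lay above 0 and 6 below, the lowest being Per3 at −0.19 (limma adjusted p = 0.25). Klf9 itself had values below the control on all knockdown arrays, but its difference of −0.09 did not pass (limma adjusted p = 0.27).

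Of the 7 genes called in these lists, Maoa stayed past the limma threshold whichever array was left out, with differences of −0.54 to −0.49. Ccn2 lost its call without control replicate 2 (adjusted p = 0.099), Tsc22d3 without control replicate 1 (0.076) and Fosl1 without either control (up to 0.078). Ccl5 kept its call only when knockdown replicate 1 was left out, Btg2 only without knockdown replicate 2 and Nr1d2 only without knockdown replicate 3, with adjusted p-values of up to 0.157, 0.176 and 0.191 otherwise. The markers Dcn and Tyrobp likewise kept their calls in 1 of the 5 such fits each.

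**Figure D4:**
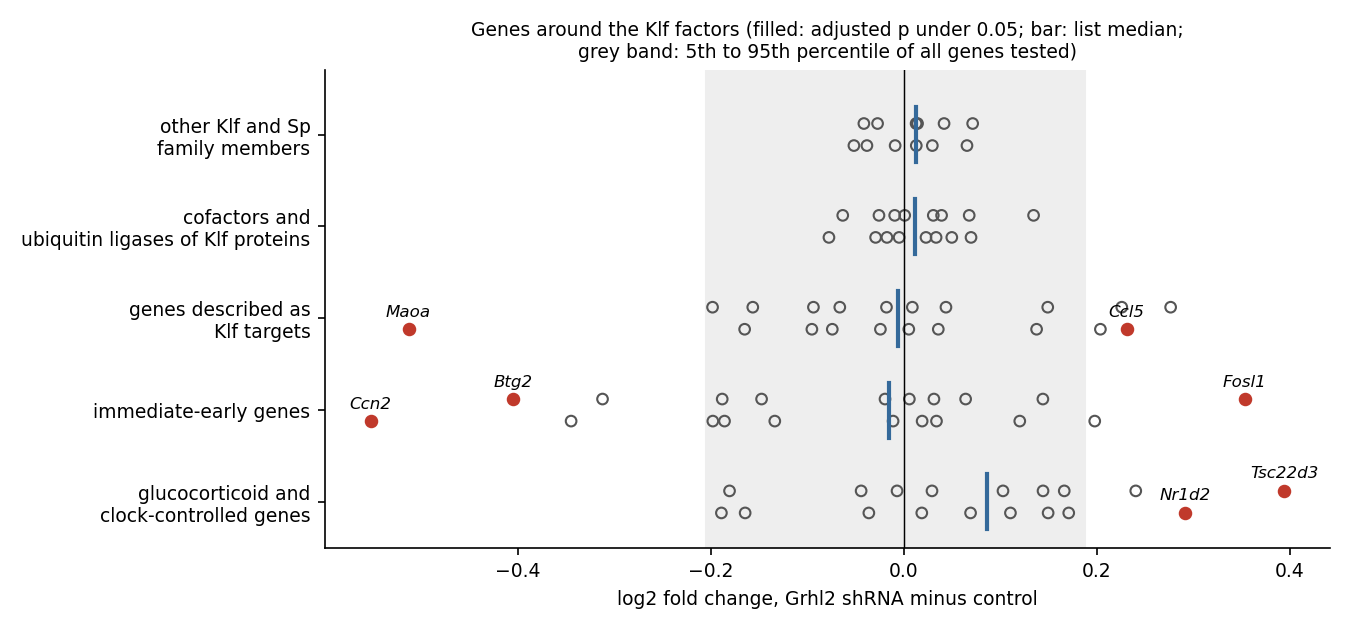
Log2 fold change (Grhl2 shRNA minus control) of each tested gene in 5 lists, with called genes filled and named, a blue bar at each list median and a grey band from the 5th to the 95th percentile of all genes tested (−0.21 to 0.19). The called genes Maoa, Ccl5, Fosl1, Ccn2, Btg2, Tsc22d3 and Nr1d2 lie outside the band, and the 2 upper lists hold no called gene.

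The genes nearest to Klf12 over the 5 arrays were found by the root mean square difference of log2 values centred on the mean of each gene. They were Naip2, an inflammasome receptor gene (distance 0.18), the tight junction gene Cldn8 (0.18), R3hdml (0.19), the retinol receptor gene Stra6 (0.20) and Smim31 (0.21). The median distance of all other tested genes was 0.56, and the nearest other Klf member was Klf7, at 0.44. Naip2 had values of 5.53, 5.29 and 5.68 with the Grhl2 shRNA and 6.15 and 6.33 in the control. Like Klf12 it was lowest on knockdown replicate 2 and highest on control replicate 2, a likeness for which the measure selects. Cldn8 and Smim31 were lowest on knockdown replicate 1, and R3hdml and Stra6 on knockdown replicate 3. Naip2 has closely similar copies in its gene family, so its signal may be shared with them. The 5 genes were all lower with the Grhl2 shRNA, which follows from the measure used.

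**Figure D5:**
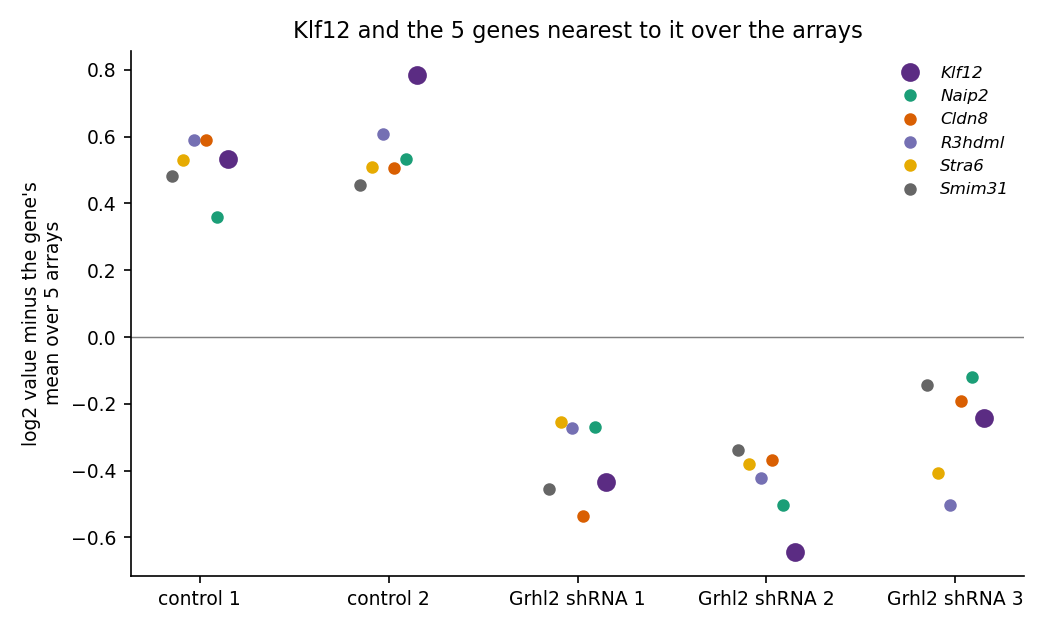
Log2 value minus the mean over the 5 arrays for Klf12 (large purple points) and the 5 genes nearest to it, on the 2 control arrays and the 3 Grhl2 shRNA arrays. All 6 genes lie above 0 on both control arrays and below 0 on the 3 others, and Klf12 has the widest span.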

How the data were processed

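The values deposited by the authors are log2 expression values of 5 one-colour oligonucleotide arrays. Per the submitters' processing notes, they come from RMA (background correction, quantile normalization, probe set summary) run in Affymetrix Expression Console. Software versions were not given in the sources used here, and the log base was taken from the method and the range of values. Of 34760 probe sets, 21640 carry 1 gene symbol in the platform annotation. Those with a mean at or above the 25th percentile of these probe sets (4.22) were kept, and the brightest probe set stood for a gene, giving 14979 genes. Groups were compared with limma 3.58.1 in R 4.3.3 (lmFit, eBayes, two-sided), with Benjamini-Hochberg adjustment over all genes and a threshold of 0.05. With 3 residual degrees of freedom, precision is limited by the number of arrays. The fit was also run on simulated data with independent normal errors drawn from its own variance prior. That run checks the code and not the results given here. Per gene list, up to 4 called genes were named by size, or the 2 largest differences where fewer than 2 were called, plus the 5 genes nearest to Klf12. Genes with no established name were left out there. The members and lists were chosen with earlier results of these data known. Alternatives covered the filter, normalization, probe set, variance prior, array weights, replicate block, threshold and each array left out. Motifs were searched in RefSeq windows.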

Additional observations from a re-analysis of the deposited data

How the results depend on the processing

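Of 139 member values recomputed under the alternatives, 137 kept their direction and 127 also their side of the threshold. The 2 exceptions in direction were Klf5 (−0.011 without knockdown replicate 2) and Klf6 (0.0058 without knockdown replicate 1). With each array left out, the log2 differences ranged from −1.23 to −0.97 for Klf12, 0.08 to 0.18 for Klf3, 0.14 to 0.20 for Klf4, −0.011 to 0.050 for Klf5, −0.048 to 0.0058 for Klf6, −0.37 to −0.22 for Klf7, −0.12 to −0.07 for Klf9, 0.12 to 0.19 for Klf10, 0.05 to 0.07 for Klf11, −0.15 to −0.11 for Klf13 and −0.29 to −0.19 for Grhl2. The members called then numbered 0 to 1 and all genes called 75 (without control replicate 2) to 492 (without knockdown replicate 3). With no moderation of the variance 9 genes and 0 members passed, with Klf12 still at −1.10. A trended, robust prior called 2034 of 14979 genes and 4 members: Klf12, Klf7 (−0.30), Klf4 (0.17) and Klf10 (0.16). It also called Grhl2 (−0.24). The filter at the 50th percentile tested 9950 genes and called 1708 of them. It left out Klf12 and called the other 3 of these members and Grhl2 (−0.24). No filter called 418 of 19937 genes. Klf7 also passed with each array centred on its median (−0.29) and with array weights (−0.30), 2 members in each case. These settings called 968 and 1094 of 14979 genes. An adjusted p under 0.1 took in 1851 genes (12.4% of those tested) and 4 members. With the replicate number as a block, 172 genes were called and Klf12 was at −1.20. The numbers name independent transductions, and the deviations of same-numbered samples correlated across genes at 0.057 and 0.019, so the block is given only here; knockdown replicate 3 has no partner in it. The 30 list medians recomputed came from no filter and from leaving out each array. Without the filter the median of the other Klf and Sp genes was −0.0089, against 0.013 in the main fit. The other list medians kept their sign there. With each array left out, the median of the other Klf and Sp genes ranged from −0.026 to 0.030, with its main sign in 2 of 5. That of the cofactors ranged from 0.0040 to 0.033 and that of the Klf targets from −0.015 to 0.0019. The immediate-early median ranged from −0.086 to 0.016, and the glucocorticoid and clock median from 0.060 to 0.107. The causes of these changes were not tested, except that the filters change how many genes are adjusted over. The Klf12 signal with the Grhl2 shRNA was near the filter level.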

Other observations

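Klf12 and Klf5 are neighbours on mouse chromosome 14, with 0 protein-coding genes between them in the RefSeq gene order, and the genes around them were looked at after their values were seen. Klf12 was at −1.10 while Klf5, next to it, was at 0.016 (limma adjusted p = 0.90). Beyond Klf5, Pibf1 was at −0.04 (adjusted p = 0.63) and Dis3, a subunit of the RNA exosome, at 0.09 (adjusted p = 0.34). On the other side of Klf12, Prr30 was at −0.04 (adjusted p = 0.83) at a low signal. The next gene, Tbc1d4, a Rab GTPase-activating protein gene of insulin-stimulated glucose uptake, rose by 0.38 (SE 0.076, adjusted p = 0.035), a call it kept in 1 of the 5 fits with an array left out.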
